A study of Homo sapiens with 8 samples.

Results

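Krüppel-like factors (KLFs) are DNA-binding transcription factors, and 10 genes of the family (KLF2, KLF3, KLF4, KLF6, KLF7, KLF9, KLF10, KLF11, KLF12 and KLF13) were measured in an Ago2-immunoprecipitation experiment on Hodgkin lymphoma cells. Every array probe whose annotated transcript belongs to 1 of these genes was taken, whatever its values. This gave 14 of the 41000 probes on the array, with a single probe for 6 genes and 2 probes each for KLF2, KLF6, KLF11 and KLF13. The 10 genes are among 16557 named genes that have a probe. All 14 probes were detected, which asks for a signal well above background in 4 of the 8 channels, and 12 of them had one in all 8. Of the 14 probes, 10 were kept, which cover 7 genes, and 4 probes (KLF3, KLF4 and both of KLF2) were not kept because their Cy3 and Cy5 signals lay more than 2-fold apart in at least 1 RNA sample. All 14 are described, and the 4 that were not kept are named as such beside their values.

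L1236 is an established Hodgkin lymphoma line in which miR-155 is abundant. One L1236 population carried the empty retroviral vector pMSCV-PIG (EV cells), and the other carried this vector with a miR-155 sponge, a transcript whose repeated sites bind the microRNA (sponge cells). Both populations were sorted on the GFP that the vector encodes, and neither was described as a clone. From each population, total RNA (T) and the RNA precipitated with an antibody to Ago2 (IP), the Argonaute protein that holds microRNAs on their target transcripts, were labelled once with Cy3 and once with Cy5. IP and T of a population shared an array, so that 4 RNA samples on 4 arrays gave 8 channels, and each group is 1 RNA sample measured with 2 dyes. No test between groups was therefore possible and no p-value is given. The error of an IP/T ratio is the SD over both dye orientations, Cy5 for IP with Cy3 for T and the reverse, and the error of a sponge-minus-EV difference in T or IP is the SD over the 2 dyes. Labelling and hybridisation are in these errors, while differences between cultures or precipitations are not. The comparisons ask which KLF transcripts were enriched with Ago2, and whether their level or their enrichment was different in cells with the sponge.

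KLFs share zinc fingers at their C-terminus that bind GC-rich and CACCC-type promoter elements, and differ in the N-terminal parts that recruit cofactors. By these parts the family is usually grouped into activator-type factors (KLF2, KLF4, KLF6 and KLF7), repressors that bind the corepressor CtBP (KLF3 and KLF12) and factors that bind the corepressor SIN3A (KLF9, KLF10, KLF11 and KLF13). In lymphocytes KLF2 and KLF4 are known for holding cells in quiescence and KLF2 also for directing homing, and several members, among them KLF10, are encoded by short-lived early-response transcripts.

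The microRNA that the sponge competes for is shown because every sponge-minus-EV comparison concerns cells given a transcript meant to hold it off its natural sites. The study proposes that the sponge captured only part of the abundant miR-155 in its Hodgkin lines, L1236 among them. A small sponge-minus-EV difference therefore does not tell whether a transcript is bound by miR-155. MiR-155 itself was not measured on these arrays. Its mature sequence in RefSeq (GRCh38.p14, chr21:25573983-25574006, + strand) has 24 bases, and the capitals mark the seed, bases 2 to 8, which pairs with targets.
hsa-miR-155-5p: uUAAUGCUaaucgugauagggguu
It was the only 1 of 2545 mature entries with this seed. Matches to the seed in KLF transcripts were not analysed here, and neither were the positions of the probes along those transcripts.

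On the 4 arrays no spot was saturated, and the share of spots well above background was lowest in T of sponge cells labelled with Cy5 (54.1%) and between 61.0% and 65.7% in the other 7 channels. All 6 Hodgkin lymphoma markers that were looked up, among them TNFRSF8 (CD30) and the miR-155 host transcript MIR155HG, gave signals well above background in each of the 4 T channels. Of 6 B-cell markers 5 were so, with MS4A1 (CD20) in none. The T-cell genes CD3D and CD3G and the myeloid gene LYZ were well above background in no T channel, while CD3E, CD14 and CSF1R were so in all 4. Signals are given as log2 of the quantile-normalised intensity, so that an IP/T ratio is relative to the bulk of the probes, whose median log2 IP/T was -0.16 with the empty vector and -0.13 with the sponge over the 22477 kept probes. A level is compared only within a probe, since probes differ in brightness.

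Most kept KLF probes were brighter in IP than in T. Of the 10 kept KLF probes, 4 had an IP/T ratio of 2 or more in EV cells, against 17.5% of all kept probes, and the same 4 had it in sponge cells, again against 17.5%. These were the single probes of KLF10 and KLF7 and both probes of KLF11. None of the 10 had a T/IP ratio of 2 or more, against 19.0% of all kept probes with the empty vector and 17.8% with the sponge. This does not hold for the wider family, since both kept probes of KLF16, which is outside the 10 genes, had such a ratio in both populations. IP exceeded T on 4 of 4 arrays for 8 of the 10 probes, against 35.7% of all kept probes, and on 0 of 4 arrays for 1 probe, KLF13 A_23_P413150, against 44.6%. The median log2 IP/T of the 10 probes was 0.67 ± 0.23 with the empty vector and 0.64 ± 0.20 with the sponge. The probes of a gene share its transcript, and the genes were chosen as a family with earlier results of these data known. These counts therefore describe the 10 probes and were not tested.

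**Figure D1:**
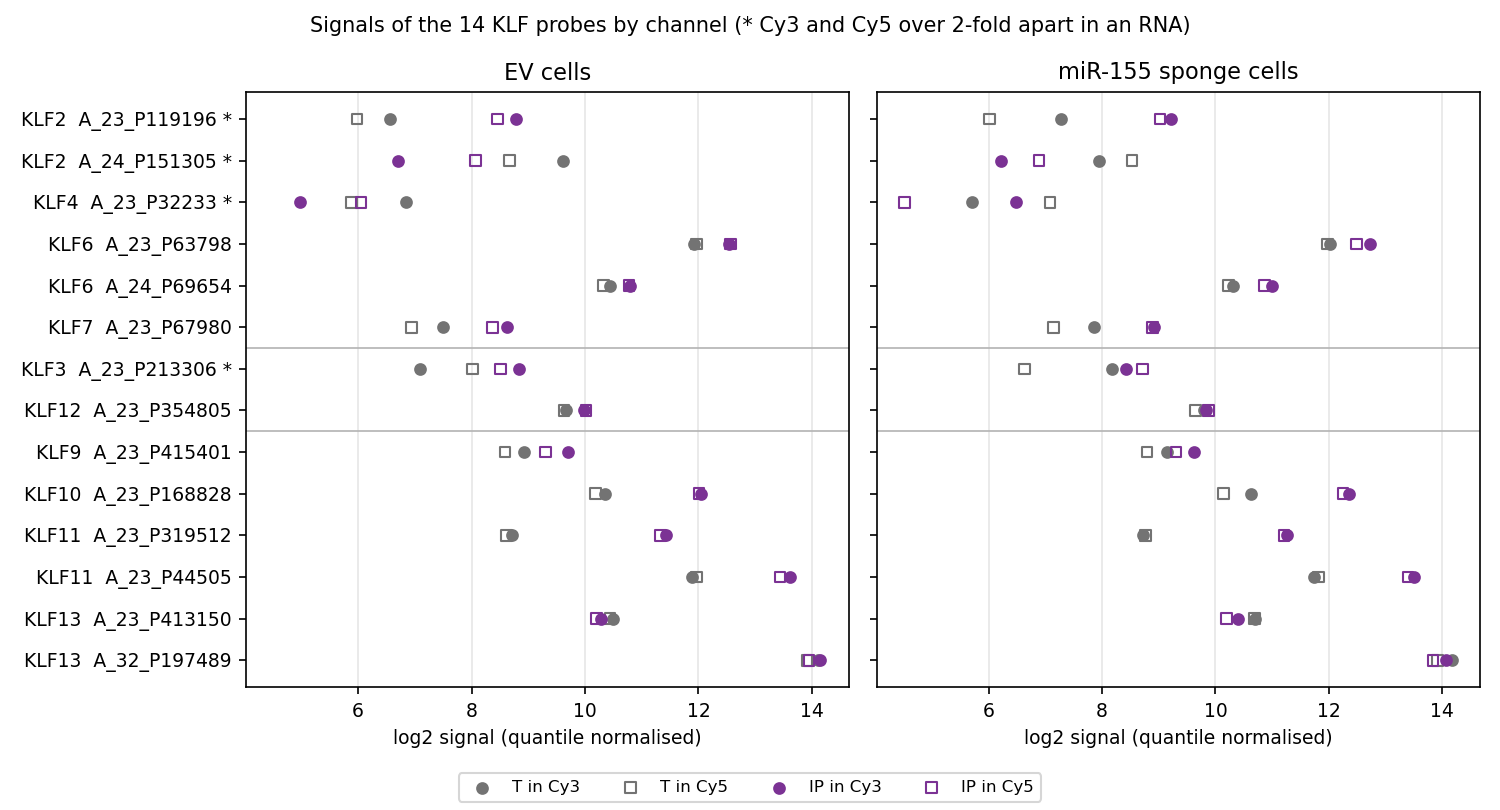
Log2 signal (quantile normalised, horizontal axis) of each of the 14 KLF probes in EV cells (left) and miR-155 sponge cells (right), with T in grey and IP in purple, Cy3 as filled circles and Cy5 as open squares. Horizontal lines separate activator-type, CtBP-binding and SIN3A-binding members, and an asterisk marks probes with dyes over 2-fold apart in an RNA sample. The IP signals of KLF10, KLF11 and KLF7 lie to the right of their T signals in all channels, and the KLF2 probes lie on opposite sides.

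KLF11, a SIN3A-binding repressor also known as a TGF-beta-inducible early gene, had the highest IP/T ratio among the kept KLF probes. Its probe A_23_P319512 had log2 signals of 8.72 in Cy3 and 8.62 in Cy5 for T of EV cells and 11.42 in Cy3 and 11.34 in Cy5 for IP of EV cells. In sponge cells the signals were 8.72 in Cy3 and 8.77 in Cy5 for T and 11.27 in Cy3 and 11.21 in Cy5 for IP. The IP channels were more than 2 log2 units above the T channels in both populations, without overlap. Log2 IP/T reached 2.71 ± 0.13 with the empty vector (a 6.55-fold ratio, above 97.5% of kept probes) and 2.49 ± 0.010 with the sponge (5.63-fold). Its size moved with the processing, to 1.55 in EV cells after normexp background correction and quantile normalisation, and 1.35 in sponge cells after normexp, loess and Aquantile.

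The other KLF11 probe, A_23_P44505, was also brighter in IP. Its signals were 11.88 in Cy3 and 11.97 in Cy5 for T of EV cells and 13.61 in Cy3 and 13.44 in Cy5 for IP of EV cells. In sponge cells they were 11.74 in Cy3 and 11.82 in Cy5 for T and 13.50 in Cy3 and 13.40 in Cy5 for IP. All 4 IP channels were thus above all 4 T channels for this probe as well, by less than for A_23_P319512. This gave a log2 IP/T of 1.60 ± 0.059 with the empty vector (3.03-fold) and 1.67 ± 0.022 with the sponge (3.18-fold). The ratio of A_23_P319512 was higher than that of A_23_P44505 by 1.11 ± 0.072 log2 units in EV cells and by 0.83 ± 0.012 in sponge cells. Both probes gave the same direction, with a difference in size between them that exceeded the spread between dye orientations.

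KLF10, a SIN3A-binding factor that is induced early by TGF-beta, had the next highest ratio among genes with a kept probe. Its probe A_23_P168828 had signals of 10.36 in Cy3 and 10.19 in Cy5 for T of EV cells and 12.05 in Cy3 and 12.01 in Cy5 for IP of EV cells. In sponge cells they were 10.63 in Cy3 and 10.14 in Cy5 for T and 12.35 in Cy3 and 12.25 in Cy5 for IP. The IP channels again lay above every T channel. KLF10 had a log2 IP/T of 1.76 ± 0.15 with the empty vector (3.38-fold, above 92.3% of kept probes) and 1.91 ± 0.41 with the sponge (3.77-fold). Its log2 IP/T was lowest after normexp and quantile normalisation, at 1.25 in EV cells and 1.43 in sponge cells. KLF11 A_23_P44505 was also lowest under this setting, at 1.31 in EV cells and 1.54 in sponge cells.

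KLF9, which binds the basic transcription element of promoters, was nearer to the bulk. Probe A_23_P415401 had signals of 8.93 in Cy3 and 8.59 in Cy5 for T of EV cells and 9.69 in Cy3 and 9.31 in Cy5 for IP of EV cells, and in sponge cells of 9.15 in Cy3 and 8.80 in Cy5 for T and 9.61 in Cy3 and 9.30 in Cy5 for IP. IP was the higher member of the pair on all 4 arrays, by an amount that depended on the dye. The ratio averaged 0.74 ± 0.52 with the empty vector and 0.49 ± 0.47 with the sponge, as log2 values, with 0.37 when IP was in Cy5 and 1.10 when IP was in Cy3 in EV cells.

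KLF13, known for activating the chemokine gene CCL5 in T lymphocytes, was the member without enrichment among the chosen SIN3A-binding genes. Its probe A_32_P197489, taken by rule, had signals of 14.12 in Cy3 and 13.91 in Cy5 for T of EV cells and 14.15 in Cy3 and 13.95 in Cy5 for IP of EV cells, and in sponge cells of 14.18 in Cy3 and 13.92 in Cy5 for T and 14.07 in Cy3 and 13.83 in Cy5 for IP. The IP and T channels overlapped, and IP was above T on 2 of 4 arrays, those with IP in Cy3. Its log2 ratios were 0.032 ± 0.28 with the empty vector and -0.097 ± 0.35 with the sponge, both within their SD of 0. The other probe, A_23_P413150, had -0.23 ± 0.092 with the empty vector and -0.40 ± 0.14 with the sponge, with T above IP on all 4 arrays. For the 4 SIN3A-binding genes among the 10, all 6 probes were kept. Of these probes 3, of which 2 are of KLF11, had a ratio of 2 or more in each population, beside 17.5% of all kept probes. The median log2 ratio of the 6 probes was 1.17 with the empty vector and 1.08 with the sponge. KLF16, a SIN3A-binding factor outside the 10 genes, is not in these values. Its kept probes were on the T side, at -2.72 and -1.35 in EV cells.

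**Figure D2:**
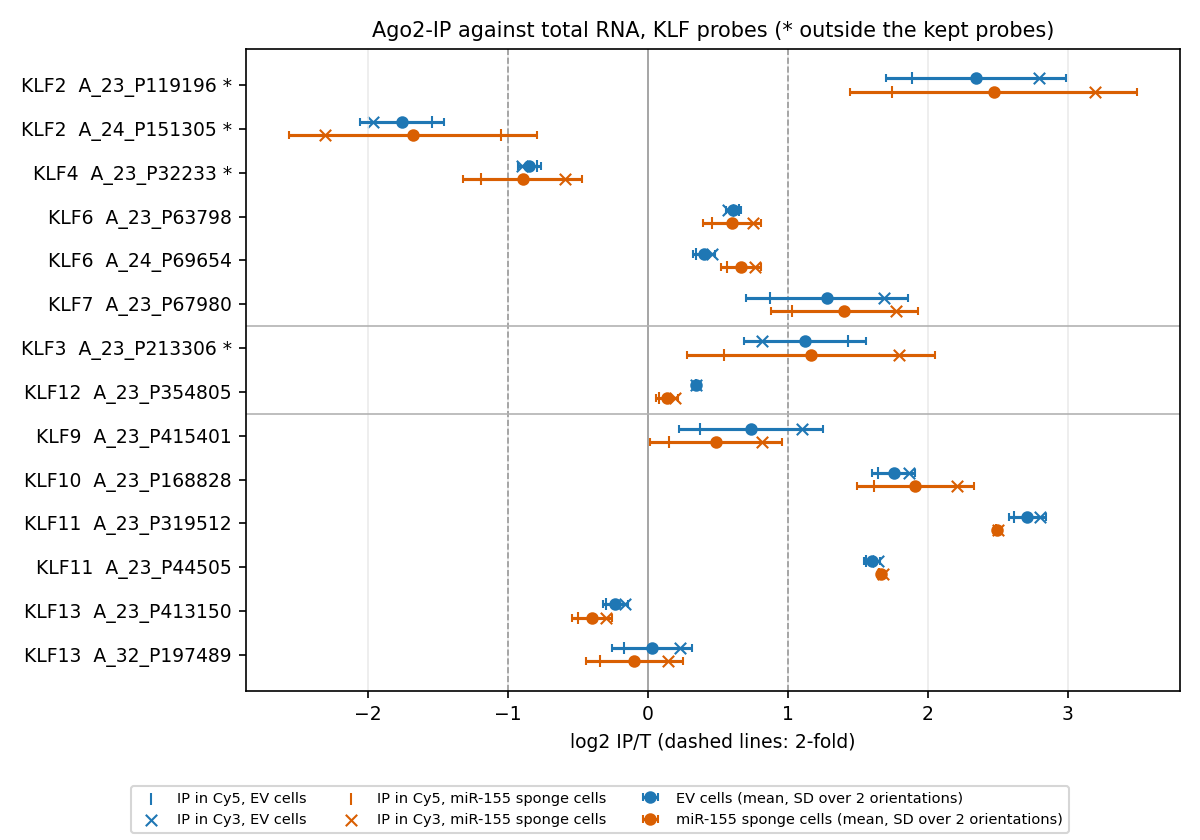
Log2 IP/T (horizontal axis) of the 14 KLF probes in EV cells (blue) and miR-155 sponge cells (orange), as the mean (circle) and SD (bar) over the 2 dye orientations, with each orientation as a tick (IP in Cy5) or a cross (IP in Cy3). Dashed lines mark 2-fold, and asterisks mark the 4 probes that were not kept. The KLF11 and KLF10 probes lie to the right of the 2-fold line in every orientation, KLF13 lies around 0, and the KLF2 probes lie on opposite sides of 0.

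Of the activator-type members, KLF7 was enriched and KLF6 less so. KLF7 is a widely expressed factor best known from neurons. Its probe A_23_P67980 had signals of 7.49 in Cy3 and 6.94 in Cy5 for T of EV cells and 8.63 in Cy3 and 8.36 in Cy5 for IP of EV cells, and in sponge cells of 7.85 in Cy3 and 7.15 in Cy5 for T and 8.92 in Cy3 and 8.89 in Cy5 for IP. All IP channels were above all T channels. KLF7 had a log2 IP/T of 1.28 ± 0.58 with the empty vector (2.43-fold) and 1.41 ± 0.52 with the sponge (2.65-fold). It was below 2-fold in EV cells on the array with IP in Cy5 (0.87) and above it on the array with IP in Cy3 (1.69). With normexp background correction it was below 2-fold in both populations, down to 0.37 in EV cells and 0.54 in sponge cells, so the call for KLF7 rests on the processed signals.

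KLF6, an early-response factor also described as a tumour suppressor, was bright in every channel. Probe A_23_P63798 had signals of 11.91 in Cy3 and 11.97 in Cy5 for T of EV cells and 12.54 in Cy3 and 12.57 in Cy5 for IP of EV cells, and in sponge cells of 12.03 in Cy3 and 11.98 in Cy5 for T and 12.73 in Cy3 and 12.48 in Cy5 for IP. IP was above T in every channel by less than 1 log2 unit. The mean of the orientations was 0.61 ± 0.055 with the empty vector and 0.60 ± 0.21 with the sponge. The other KLF6 probe, A_24_P69654, had 0.40 ± 0.080 and 0.67 ± 0.15. Both KLF6 probes were thus above T on all 4 arrays and below the 2-fold limit in both populations.

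The KLF2 probes gave opposite directions. Probe A_24_P151305 was well above background in all 8 channels and had signals of 9.61 in Cy3 and 8.67 in Cy5 for T of EV cells and 6.71 in Cy3 and 8.07 in Cy5 for IP of EV cells. In sponge cells they were 7.94 in Cy3 and 8.53 in Cy5 for T and 6.22 in Cy3 and 6.89 in Cy5 for IP. T was above IP on all 4 arrays, at a log2 IP/T of -1.75 ± 0.30 with the empty vector and -1.68 ± 0.89 with the sponge. In EV cells it was -2.90 from Cy3 labels alone and -0.61, short of 2-fold, from Cy5 labels alone. The other probe, A_23_P119196, was well above background in 6 channels, among them 1 of the 2 T channels of each population. Its signals were 6.57 in Cy3 and 5.98 in Cy5 for T of EV cells and 8.78 in Cy3 and 8.46 in Cy5 for IP of EV cells. In sponge cells they were 7.28 in Cy3 and 6.02 in Cy5 for T and 9.22 in Cy3 and 9.02 in Cy5 for IP. For this probe IP was above T on all 4 arrays, at 2.34 ± 0.64 with the empty vector and 2.47 ± 1.03 with the sponge. The probes differed by 4.10 ± 0.94 log2 units in EV cells and by 4.15 ± 1.91 in sponge cells. Neither was kept: the Cy3 and Cy5 signals of A_23_P119196 were 2.38-fold apart in T of sponge cells, and those of A_24_P151305 were 2.57-fold apart in IP of EV cells. Normexp with quantile normalisation brought A_23_P119196 to 0.53 and A_24_P151305 to -0.59 in EV cells. These data therefore give no single direction for KLF2.

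KLF4, which restrains proliferation of B cells and is known as a reprogramming factor, was dim and dye-dependent. Probe A_23_P32233 was well above background in 7 channels, and in 1 of the 2 IP channels of sponge cells. Its signals were 6.84 in Cy3 and 5.88 in Cy5 for T of EV cells and 4.98 in Cy3 and 6.05 in Cy5 for IP of EV cells, and in sponge cells 5.71 in Cy3 and 7.08 in Cy5 for T and 6.49 in Cy3 and 4.51 in Cy5 for IP. The channels of an array were high or low together, so that T of EV cells in Cy3 and IP of EV cells in Cy5, which shared an array, were both above their partners on the other. Averaged over dyes, log2 IP/T was -0.85 ± 0.080 with the empty vector and -0.89 ± 0.43 with the sponge, with T above IP on all 4 arrays. It was not kept, with dyes 2.11-fold apart in IP of EV cells, 2.59-fold in T of sponge cells and 3.93-fold in IP of sponge cells. From Cy5 labels alone, this value in EV cells was 0.17, and from Cy3 labels alone it was -1.86.

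The CtBP-binding repressors were KLF12 and KLF3. KLF12, first described as a repressor of the AP-2 alpha gene, had steady signals with probe A_23_P354805, of 9.67 in Cy3 and 9.63 in Cy5 for T of EV cells and 9.98 in Cy3 and 10.02 in Cy5 for IP of EV cells. In sponge cells they were 9.80 in Cy3 and 9.65 in Cy5 for T and 9.84 in Cy3 and 9.88 in Cy5 for IP. IP was slightly above T on all 4 arrays, by 0.35 ± 0.0025 log2 units with the empty vector and 0.14 ± 0.080 with the sponge. KLF3, a widely expressed repressor also called basic Krüppel-like factor, had signals with probe A_23_P213306 of 7.09 in Cy3 and 8.02 in Cy5 for T of EV cells and 8.83 in Cy3 and 8.52 in Cy5 for IP of EV cells. In sponge cells they were 8.17 in Cy3 and 6.63 in Cy5 for T and 8.42 in Cy3 and 8.71 in Cy5 for IP. IP was above T on all 4 arrays, while the T signals were 1.91-fold apart between dyes in EV cells and 2.91-fold apart in sponge cells, so the probe was not kept. KLF3 averaged 1.12 ± 0.44 log2 units of IP over T with the empty vector and 1.17 ± 0.89 with the sponge, and normexp with quantile normalisation brought the EV value to 0.35. Single dyes gave different calls, with 1.75 from Cy3 labels and 0.50 from Cy5 labels in EV cells, and 0.25 and 2.08 in sponge cells.

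Without the limit on dye differences all 14 probes counted, and 6 had a ratio of 2 or more in each population, with KLF3 and KLF2 A_23_P119196 added, against 18.6% of detected probes with the empty vector and 19.4% with the sponge. A T/IP ratio of 2 or more was then found for 1 probe, KLF2 A_24_P151305, against 18.7% with the empty vector and 18.0% with the sponge. IP exceeded T on 4 of 4 arrays for 10 of the 14, against 35.4% of detected probes, and on 0 of 4 arrays for 3, against 42.1%. With normexp and either between-array step, 14 KLF probes passed both filters and 3 of them (KLF10 and both of KLF11) had a ratio of 2 or more in each population. Under normexp with loess and Aquantile the background share was 8.76% with the empty vector and 6.91% with the sponge, and the median of all kept probes was 0.0082 in EV cells in place of -0.16. Relative to that median, the KLF median of 0.45 in EV cells was still on the IP side.

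Between the cell populations, no KLF probe differed by 2-fold in T. Of the 10 kept probes, 0 were 2-fold or more higher or lower in sponge cells with the same sign in both dyes, against 0.409% of all kept probes (0.151% higher and 0.258% lower). A 2-fold difference was thus rare on the whole array, and 0 of 10 is near this background. Of the 14 probes 0 passed without the dye limit, against 1.40% of detected probes (0.426% higher and 0.975% lower). The median sponge-minus-EV difference of the 10 probes in T was 0.074 ± 0.076 log2 units, and that of all kept probes was -0.016. For these RNA pools a difference in the share of expressing cells and one in transcript per cell cannot be told apart.

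The largest difference in T among the kept probes was that of KLF7, at 0.28 ± 0.11 log2 units (1.22-fold), inside the range of -0.38 to 0.37 that held the middle of all kept probes from the 5th to the 95th percentile. Normexp with quantile normalisation turned its sign, to -0.074. KLF13 A_23_P413150 was higher in sponge cells by 0.22 ± 0.040 and KLF9 by 0.21 ± 0.0097. The second KLF13 probe, A_32_P197489, differed by 0.033 ± 0.039, less than its SD, so that the pair gave no common size. KLF11 A_23_P44505 was lower, at -0.14 ± 0.011, and KLF6 A_24_P69654 likewise, at -0.11 ± 0.022, while their partner probes had 0.078 ± 0.10 and 0.061 ± 0.072, each within its SD. KLF10 (0.11 ± 0.22) and KLF12 (0.070 ± 0.080) also differed by less than their SD. Over the 10 probes the difference exceeded its own SD in 5, against 50.7% of all kept probes.

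Ago2-bound KLF transcripts also differed little between the populations. In IP, 0 of the 10 kept probes were 2-fold or more different with the same sign in both dyes, against 0.151% of all kept probes (0.0845% higher and 0.0667% lower), and without the dye limit 0 of 14, against 0.457% (0.244% and 0.213%). As in T, these counts of 0 are near the background and set the family apart from nothing. The median difference of the 10 was 0.0038 ± 0.033 log2 units, beside 0.0060 for all kept probes. KLF7 had the largest value, 0.41 ± 0.16 higher in sponge cells (1.33-fold), which was above 97.1% of kept probes. With normexp, loess and Aquantile it was 0.070. KLF10 was higher in IP of sponge cells by 0.27 ± 0.039, with 0.24 in Cy5 and 0.30 in Cy3. KLF11 A_23_P319512 had a difference of -0.14 ± 0.017 and KLF12 one of -0.14 ± 0.0029, both lower in sponge cells in both dyes. The difference exceeded its SD in 7 of 10 probes, against 64.6% of all kept probes.

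**Figure D3:**
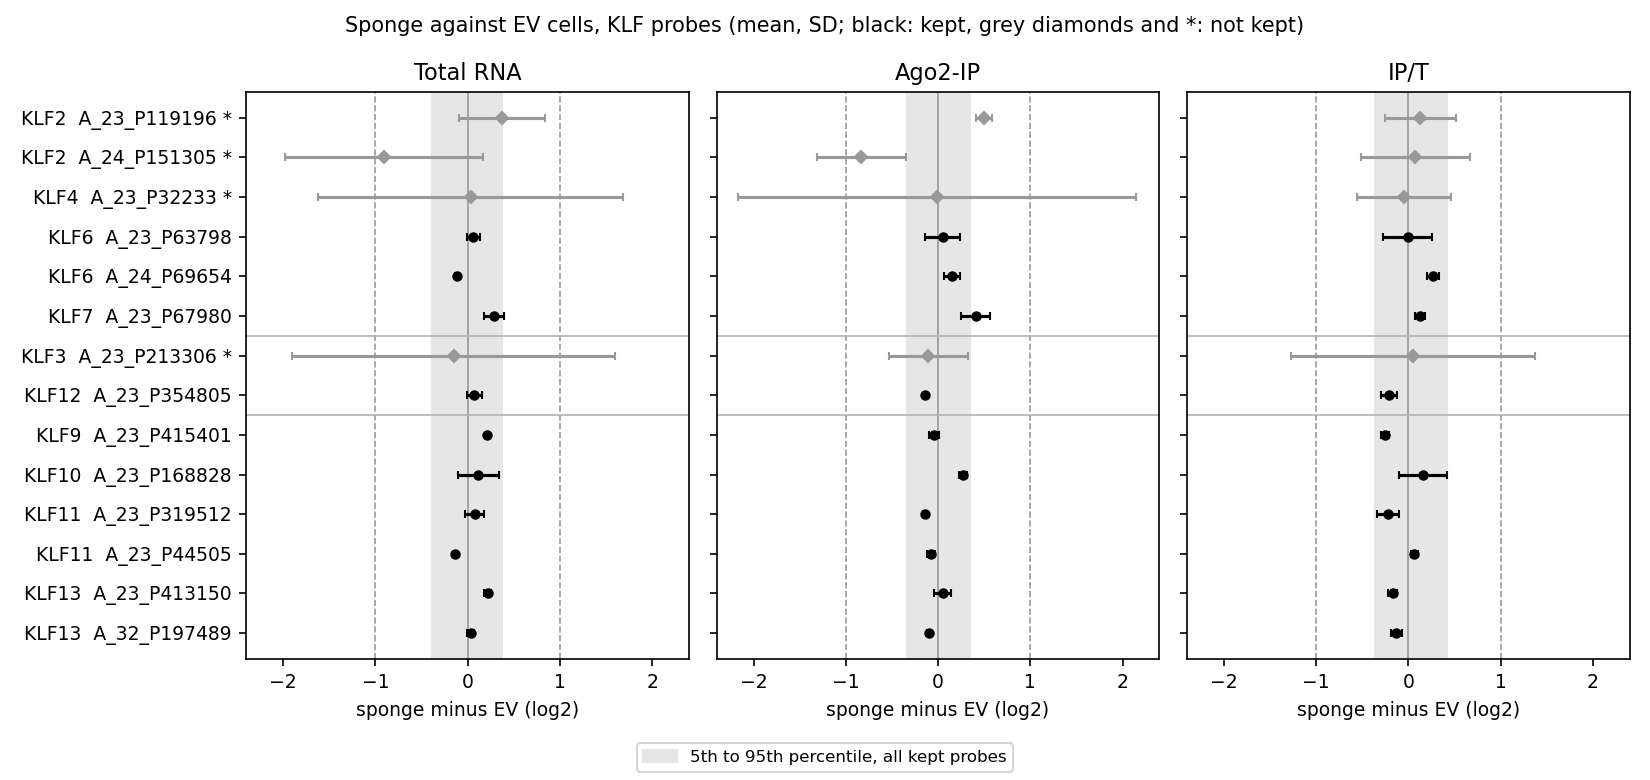
Sponge-minus-EV difference (log2, horizontal axis) of the 14 KLF probes in T (left), in IP (middle) and in IP/T (right), as mean and SD over 2 dyes or dye orientations, with kept probes in black and the 4 others as grey diamonds. The grey band runs from the 5th to the 95th percentile of all kept probes and dashed lines mark 2-fold. All 10 kept probes lie inside the 2-fold lines in each panel, and KLF7 lies above the band in IP.

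The probes that were not kept had wider errors. KLF2 A_23_P119196 was higher with the sponge, at 0.37 ± 0.47 for T and 0.50 ± 0.086 for IP, and KLF2 A_24_P151305 was lower, at -0.91 ± 1.08 for T and -0.83 ± 0.49 for IP. KLF3 differed by -0.15 ± 1.75 in T and -0.11 ± 0.43 in IP, and KLF4 by 0.033 ± 1.65 and -0.015 ± 2.16. For KLF3 and KLF4 the dyes gave opposite signs in both RNA fractions, so these probes carry no direction. The KLF2 probes each had a common sign in both dyes, and their signs opposed each other, with differences in T inside their SD.

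The enrichment itself was the last comparison: a transcript released from Ago2 by the sponge would have a lower IP/T ratio in sponge cells. This holds only as far as the sponge captured miR-155, which the study proposes was incomplete. The study's criterion for miR-155 targets, an IP/T ratio of 2 or more in EV cells that is lower by 2-fold or more in sponge cells, was met by 0 of the 10 kept KLF probes, against 0.0934% of all kept probes. Without the dye limit it was met by 0 of 14, against 0.190%. With shares this small, both counts of 0 are near the background and are no result about the family. The median sponge-minus-EV difference in log2 IP/T was -0.068 ± 0.092 for the 10 probes and 0.017 for all kept probes. Its direction was lower for 6 of the 10 and higher for 4, beside 10541 of the 22477 kept probes lower. Over all 14 KLF probes the median was 0.019 ± 0.16, with 7 lower and 7 higher. The sign of the KLF median thus depended on the dye limit.

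Among the enriched members, KLF11 A_23_P319512 had a lower ratio in sponge cells, by a log2 difference of -0.22 ± 0.12, and the other KLF11 probe a higher one, by 0.066 ± 0.037. The KLF11 probes therefore disagreed in direction. KLF10 differed by 0.16 ± 0.26, less than its SD, and KLF7 by 0.13 ± 0.053. KLF9 had the lowest value, -0.25 ± 0.044, followed by KLF12 with -0.21 ± 0.082 and by KLF13 with -0.17 ± 0.051 and -0.13 ± 0.062. KLF6 A_24_P69654 had the highest, 0.26 ± 0.065, while KLF6 A_23_P63798 had -0.0080 ± 0.26. All 10 values lay between the 5th and 95th percentiles of all kept probes, -0.36 and 0.42. The difference exceeded its SD in 8 of 10, against 53.0% of all kept probes. Over all 14 KLF probes it did so in 8 (57.1%), so the share depended on the dye limit. Each SD rests on the dye orientations of the same RNA samples, and probes of a gene share its transcript. These counts therefore describe the probes and were not tested. Of the genes with both probes kept, KLF13 alone had a lower ratio beyond the SD in both, and it was not enriched in EV cells.

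The rest of the family was mostly undetected or dye-dependent. Of 8 other KLF genes looked up, 7 had a probe on the array, with 10 probes, and 1, KLF16, had kept probes. KLF16, a SIN3A-binding factor related to KLF9 and KLF13, was on the T side in both populations. Its probe A_24_P173294 stood at -2.72 ± 0.37 with the empty vector and -3.10 ± 0.77 with the sponge, as log2 IP/T, and its probe A_23_P16476 had -1.35 ± 0.36 and -1.47 ± 0.040. IP/T within the SIN3A-binding group thus ran from these values to the 2.71 ± 0.13 of KLF11 in EV cells. KLF15 was well above background in 0 channels on both of its probes, KLF8 in 1 channel and KLF1 in 2. KLF5, an activator that drives epithelial proliferation, had probe A_23_P53891 well above background in no T channel and in all 4 IP channels. Its IP/T thus has only a bound, of at least 1.14-fold in EV cells and at least 1.13-fold in sponge cells. This bound comes from normexp values, on which KLF11, KLF10 and KLF7 had smaller ratios than on the processed signals. The other KLF5 probe, A_24_P210406, had a log2 IP/T of 1.57 ± 0.32 with the empty vector and 1.65 ± 1.83 with the sponge. This probe and those of KLF14 and KLF17 had dyes over 2-fold apart in at least 1 RNA sample and were not kept.

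The SP family, whose zinc fingers bind the same GC-rich elements, had few kept probes. Of 9 SP genes 7 had a probe and 4 a kept probe, and 0 of the 4 had a ratio of 2 or more in either direction, beside 17.5% of all kept probes for IP/T and 19.0% for T/IP in EV cells, a count too small to set against those shares. Their median log2 IP/T was 0.81 ± 0.15 with the empty vector and 0.56 ± 0.13 with the sponge.

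Among 12 KLF cofactors and regulators of KLF stability, 11 had a kept probe and 3 of them a ratio of 2 or more in both populations, beside 17.5% of all kept probes in either. FBXW7, the substrate receptor of a ubiquitin ligase that marks KLF2 and KLF5 for degradation, had a log2 IP/T of 2.79 ± 0.15 with the empty vector and 2.45 ± 0.47 with the sponge. KAT2B, an acetyltransferase that acts as a coactivator, had log2 values of 1.96 ± 0.069 and 1.86 ± 0.18. WWP1, a ubiquitin ligase that also acts on KLF2 and KLF5, had 1.15 ± 0.10 and 1.01 ± 0.21. The median of the 11 was -0.062 ± 0.12 in EV cells, near that of all kept probes.

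The kinase cascade and MEF2 factors that induce KLF2 and KLF4 were listed together with the transcription factor FOXO1. Of these 9 genes 8 had a kept probe, and 1 of the 8 had a ratio of 2 or more, near the 17.5% of all kept probes. Their log2 IP/T had a median of 0.30 ± 0.023 in EV cells. The transcription factor MEF2A was the 1 gene with a ratio of 2 or more, at log2 values of 1.88 ± 0.34 with the empty vector and 1.89 ± 0.58 with the sponge. The kinase MAP2K5, named after its values were seen, was on the T side, at -1.20 ± 0.42 with the empty vector and -0.82 ± 0.33 with the sponge.

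Genes commonly named as regulated by KLFs held several enriched members. Of 12 genes 9 had a kept probe and 7 of the 9 had a ratio of 2 or more in both populations, beside 17.5% of all kept probes in either. This list, like the others, was chosen with earlier results of these data known. Each gene counts at its brightest kept probe, while the share is over all kept probes. The count therefore describes these genes and was not tested. Their median log2 IP/T was 1.78 ± 0.031 with the empty vector and 1.79 ± 0.21 with the sponge. S1PR1, the sphingosine-1-phosphate receptor for egress from lymphoid organs, had a log2 IP/T of 4.70 ± 0.35 with the empty vector and 4.14 ± 0.16 with the sponge. Its signals in EV cells were 6.49 and 6.13 for T and 11.07 and 10.94 for IP, in Cy3 and Cy5, and in T of sponge cells 1 of 2 channels was well above background. List genes were not followed through the alternative settings, so how far their ratios depend on the processing was not tested. The chemokine receptor CCR7 had 2.94 ± 0.19 and 2.70 ± 0.012, and the cell cycle inhibitor CDKN1B had 2.74 ± 0.047 and 2.53 ± 0.069. The exception on the T side was the integrin gene ITGB7, named after its values were seen, at -0.88 ± 0.053 with the empty vector and -1.07 ± 0.52 with the sponge. At its brightest kept probe, no gene of any of these lists differed by 2-fold between the populations in T or in IP. Of all kept probes 0.409% did so in T and 0.151% in IP, with the same sign in both dyes. The counts of 0 are near these shares and are no result about the lists.

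**Figure D4:**
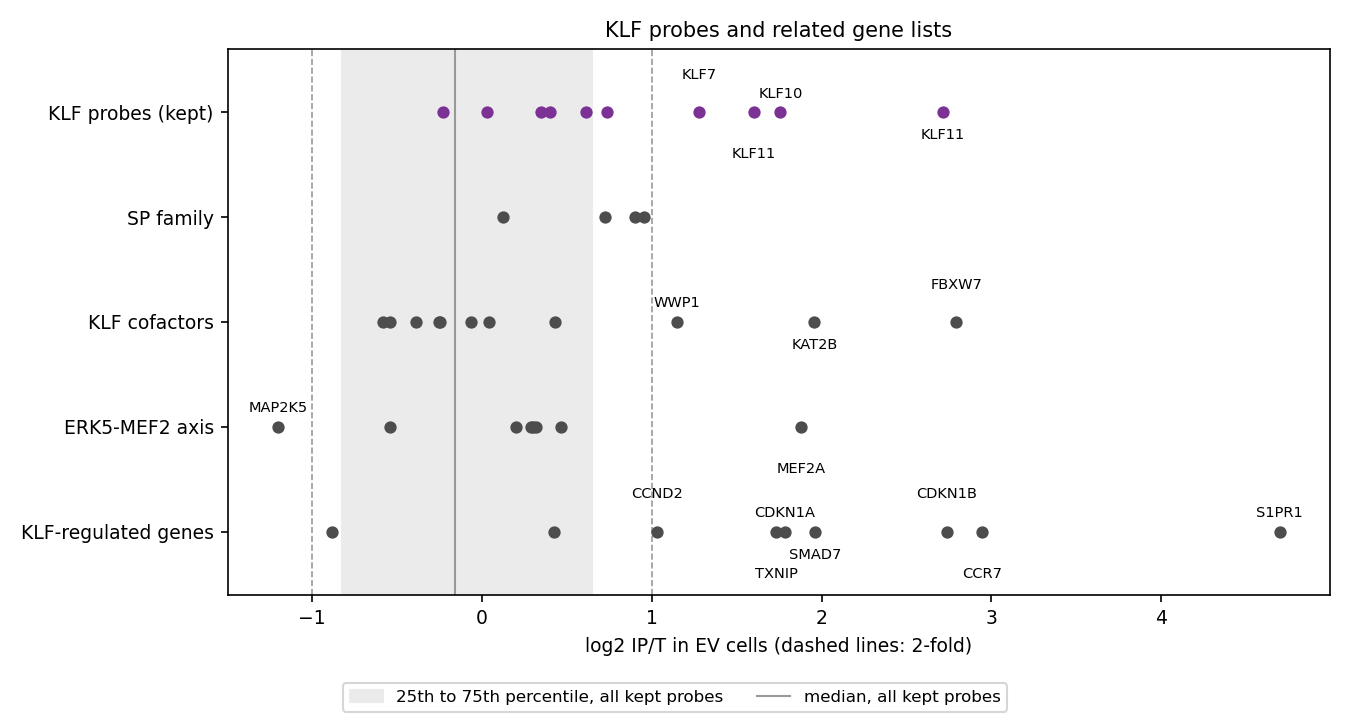
Log2 IP/T in EV cells (horizontal axis) of the 10 kept KLF probes (purple) and of genes in 4 related lists (grey, each at its brightest kept probe), with dashed lines at 2-fold and gene names at 2-fold or more. The grey band spans the 25th to 75th percentile of all kept probes, and the vertical line is their median. KLF11, KLF10 and KLF7 lie beyond 2-fold, as do 7 of the 9 KLF-regulated genes, with S1PR1 the farthest. Members and lists were chosen with earlier results of these data known.

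The transcripts whose pattern over the 4 RNA samples was nearest to that of KLF11 A_23_P319512 were found by the Euclidean distance between log2 signals centred on each probe's mean, among 14158 named probes well above background in all 8 channels. They were N4BP2L1 (distance 0.0363, log2 IP/T 2.74 ± 0.13 with the empty vector and 2.52 ± 0.21 with the sponge), CSNK1G3 (distance 0.0635, log2 IP/T 2.63 ± 0.31 with the empty vector and 2.47 ± 0.15 with the sponge) and ZFYVE26 (distance 0.0724, log2 IP/T 2.78 ± 0.14 with the empty vector and 2.50 ± 0.17 with the sponge). The likeness rests on 4 RNA samples.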

How the data were processed

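Each scanner file holds spot intensity values that the authors extracted with Agilent Feature Extraction (version 10.7.3.1 in the file headers, 10.5.1.1 in the labels), as background-subtracted and dye-normalised signals for both channels of an array. The deposited series table holds log2 values of 22282 probes that the authors normalised by quantiles and filtered, and it served as an alternative. Control spots and spots marked as outliers were left out and the spots of a probe were averaged. Log2 signals were quantile normalised over the 8 channels. A probe was kept if well above background in at least 4 channels (25837 probes) and if Cy3 and Cy5 lay within 2-fold in every RNA sample, which removed 3360 and left 22477, as the study's methods describe. Of the kept probes 15632 (69.5%) could be named through RefSeq symbols (GRCh38.p14, used for names only, since the array follows another build). Calls are folds of 2 or more with no test. Bounds for dim probes and 2 of the 13 alternatives used normexp (offset 50, limma 3.58.1 in R 4.3.3) on median spot signals, the files holding no mean ones. Scripts ran in Python 3.11.15 with pandas 2.3.3 and were tested on simulated data. Every member probe is reported. The text gives all channels of each member's best-detected probe, and of a partner probe whose log2 IP/T differs from it by over 1. List genes are named at ratios of 2 or more, either way, in both populations, up to 3 a list, and nearest patterns by distance. Members and lists were chosen with earlier results of these data known.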

Additional observations from a re-analysis of the deposited data

How the results depend on the processing

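Over 13 alternatives (normexp with either normalisation, scaling to the 75th percentile, the authors' values, other limits on detection and dyes, outlier spots kept, single dyes and single orientations), 9 to 14 KLF probes were kept, and 3 to 6 had an IP/T ratio of 2 or more in either population. Without the limit on dyes 14 probes were kept, 6 had an IP/T ratio of 2 or more in each population, and 1 probe, of KLF2, had a T/IP ratio of 2 or more in EV cells and 1 in sponge cells, in place of 0. With normexp and quantile normalisation the median log2 IP/T was 0.34 with the empty vector and 0.39 with the sponge, and the cause was not tested. The median difference in IP lay near 0 and moved to -0.041 with dyes at most 1.5-fold apart, to -0.029 with IP in Cy5 only, and between -0.029 and 0.017 when 1 dye was left out. The median difference in IP/T was -0.068, and 0.019 without the limit on dyes. No call changed sign. For single probes the filters leave values as they are, and a single orientation cannot move a value by more than the SD, so no tally over single probes is given. No paired analysis was possible because the replicate numbers name the dyes of 1 RNA sample. With 1 RNA sample a group, differences between cultures were not measured, and the 4 probes not kept had dyes up to 3.93-fold apart.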
